A study of Homo sapiens with 16 samples.

Results

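The plasma serpins made by the liver were followed in HepG2, a line grown from a human liver tumour that still secretes many plasma proteins, after 7 days with 1 of 3 fatty acids or with none. The set held 10 genes chosen by symbol, SERPINA1, SERPINA3, SERPINA5, SERPINA6, SERPINA7, SERPINC1, SERPIND1, SERPINF1, SERPINF2 and SERPING1. Every gene had at least 1 probe on the array, and the set came to 13 of the 30968 probes. SERPINA1, SERPINC1 and SERPINF1 had 2 probes each. A total of 12 probes of 9 genes had values above 0 in all 16 samples and could be tested.

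The groups were elaidic acid, oleic acid and stearic acid, each added at 100 µM, and a control group to which no fatty acid was added. Each group had 4 biological replicates, and all were HepG2 cells kept without serum. Elaidic and oleic acid are the trans and the cis isomer of the same monounsaturated acid, and stearic acid is the saturated acid of the same chain length. The labels do not say whether the replicates came from separate cultures, so that the p-values measure the spread between these samples. RNA came from whole cultures, in which fewer cells making a serpin and less serpin RNA per cell cannot be told apart. Values below are log2 intensities after quantile normalisation between samples unless another scale is named.

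Most serpins are protease inhibitors that work as single-use traps. The target protease cuts an exposed loop of the serpin, the loop inserts into the body of the protein, and the protease stays bound and distorted. Hepatocytes secrete many of them into plasma, where they restrain clotting, fibrinolysis, complement and neutrophil proteases. SERPINA6 and SERPINA7 have kept the fold but carry hormones, and SERPINF1 is a secreted member that inhibits no known protease. SERPINA1, SERPINA3, SERPINA5 and SERPINA6 lie in a gene cluster on chromosome 14, while SERPINF1 and SERPINF2 both lie on chromosome 17. Liver promoters of this family are known to be read by the hepatocyte factors HNF1, HNF4, C/EBP and FOXA.

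Promoter sequences from RefSeq (GRCh38.p14) were at hand for 6 of the 10 genes, SERPINA1, SERPINA3, SERPINA5, SERPINA6, SERPINA7 and SERPIND1. Each runs from 250 bases before to 50 bases after a gene start. Both strands were searched for the letters GTTAAT of HNF1 sites, CAAAGT of HNF4 sites, TTGCNNAA of C/EBP sites and TGTTTNC of FOXA sites. A member gene was counted when any of its starts held a match, and SERPINA1 has 2 starts. The share of all promoters counts each promoter singly, so that the units differ. GTTAAT was found in 3 of the 6 genes and in 6.88% of all 35116 promoters, CAAAGT in 3 genes and 11.9% of promoters, TTGCNNAA in 1 gene and 10.5% of promoters, and TGTTTNC in 2 genes and 18.0% of promoters. The promoters of the 2 hormone carriers, of SERPIND1 and of 1 of the 2 SERPINA1 starts are shown because these 4 genes rose with stearic acid in the fit on all samples and hold such matches, which are in capitals. SERPINA5 also rose with stearic acid in that fit, and its promoter held no match. The promoter of SERPINA3, which was not tested, and that of the other SERPINA1 start held none either. A match describes letters and does not show that a factor binds there.
SERPINA6, chr14:94323287-94323586, minus strand: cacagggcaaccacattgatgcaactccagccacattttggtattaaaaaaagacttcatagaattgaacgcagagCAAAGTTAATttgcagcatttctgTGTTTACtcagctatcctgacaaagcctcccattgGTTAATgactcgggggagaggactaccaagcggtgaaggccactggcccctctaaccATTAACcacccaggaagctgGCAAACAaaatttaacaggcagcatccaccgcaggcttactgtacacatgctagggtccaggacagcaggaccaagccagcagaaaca
SERPINA7, chrX:106038678-106038977, minus strand: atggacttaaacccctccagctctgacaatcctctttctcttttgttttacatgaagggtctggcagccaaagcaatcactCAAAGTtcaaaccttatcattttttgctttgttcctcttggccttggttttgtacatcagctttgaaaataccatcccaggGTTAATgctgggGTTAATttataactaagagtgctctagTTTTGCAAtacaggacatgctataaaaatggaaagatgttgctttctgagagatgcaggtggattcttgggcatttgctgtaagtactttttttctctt
SERPIND1, chr22:20773863-20774162, plus strand: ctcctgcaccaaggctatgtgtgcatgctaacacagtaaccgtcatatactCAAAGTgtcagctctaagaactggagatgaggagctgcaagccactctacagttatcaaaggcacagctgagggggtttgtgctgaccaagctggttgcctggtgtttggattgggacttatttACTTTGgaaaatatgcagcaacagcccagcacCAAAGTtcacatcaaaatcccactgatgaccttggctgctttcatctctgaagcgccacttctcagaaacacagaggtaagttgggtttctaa
SERPINA1, chr14:94388553-94388852, minus strand: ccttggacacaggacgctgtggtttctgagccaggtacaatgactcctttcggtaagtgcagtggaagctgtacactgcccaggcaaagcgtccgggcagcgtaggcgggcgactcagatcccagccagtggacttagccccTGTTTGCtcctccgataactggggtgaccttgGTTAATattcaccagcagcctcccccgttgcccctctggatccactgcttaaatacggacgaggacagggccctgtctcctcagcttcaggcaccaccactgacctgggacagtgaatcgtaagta
The SERPINA6 promoter held 3 matches to the HNF1 letters, the first of which overlaps its HNF4 match, and the SERPINA7 promoter held 2. SERPIND1 held 3 matches to the HNF4 letters and none of the other 3 kinds.

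The labels give array numbers in 2 separate ranges, and slide series A and B are inferred here from them. The labels do not say what the ranges stand for, or that either was one batch of hybridisation. Elaidic acid replicates 2 and 4 were in series A with every oleic acid and control sample, while its replicates 1 and 3 were in series B with every stearic acid sample. Raw median intensity per array ran from 45.8 to 76.1 in series B and from 19.95 to 72.8 in series A. Slide series was therefore also fitted as a block, and the serpin differences are given in both fits. For oleic acid against control the value is the same in both. For elaidic acid against control or oleic acid that block leaves the 2 series A samples against 4, and against stearic acid the 2 series B samples against 4. No series held stearic acid together with control or oleic acid, and those blocked differences run through the elaidic acid samples. Of 16 hepatocyte markers 12 had a probe, and their median raw intensities were 27699 and 24755 for the probes of APOA1, 15517 and 1220 for TTR, 6735 and 1298 for APOB and 5857 for AFP. AHSG (457) and the fibrinogen chains FGB (569) and FGG (205 and 5.27) were dimmer, and FGA was near background at 0.68. Of 16 markers of other cell types 14 had a probe, and their levels were mixed within each cell type. The endothelial markers had medians of 14.97 and 9.61 for the probes of PECAM1, 20.9 for VWF and 366 for CDH5. Those of immune cells were 21.9 for PTPRC, 95.1 for CD163 and 1545 for CD14. The fibroblast and mesenchymal markers were at 3.43 for COL3A1, 4.46 for VIM, 64.1 for COL1A2, 120 for DES, 137 for PDGFRB and 232 for COL1A1, and the duct keratins at 9.17 for KRT7 and 11953 for KRT19. The summed level of the 11 tested markers of other cell types was 13.25 to 13.96 with elaidic acid, 13.42 to 14.08 with oleic acid, 14.24 to 14.39 with stearic acid and 13.19 to 14.07 in control. KRT19, by far the brightest of them, weighs most in that sum. The mean of their log2 levels put the groups in another order, at 7.03 with elaidic acid, 7.34 with oleic acid, 7.03 with stearic acid and 7.22 in control. The part of these markers in the serpin results was not tested.

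**Figure D1:**
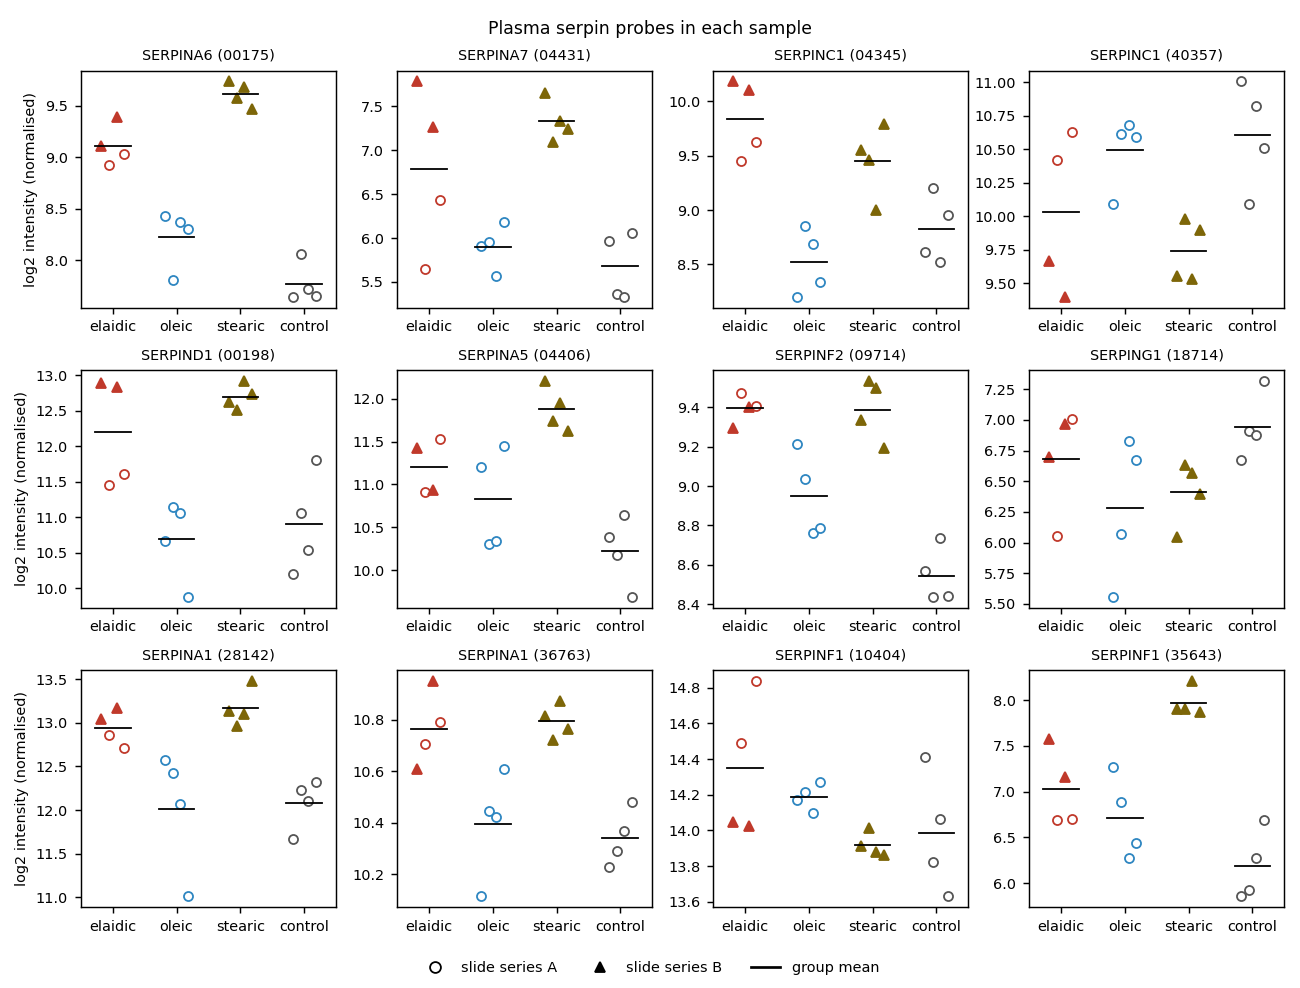
Normalised log2 intensity (y axis) of the 12 tested serpin probes in each sample, by group (x axis), with the last digits of the probe name in each title. Open circles are slide series A, filled triangles slide series B, and bars are group means (n = 4). For SERPINA5, SERPINA6, SERPINF2 and both SERPINA1 probes, all elaidic and all stearic acid samples lay above all control samples. For SERPINA7 and SERPIND1 the elaidic acid samples of series B lay near stearic acid and those of series A nearer to control.

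SERPINA6 encodes the corticosteroid-binding globulin, which carries cortisol in blood. It rose with elaidic acid and with stearic acid and had the smallest adjusted p of the set in both comparisons. Its probe (PH_hs_0000175) read 9.11, 8.92, 9.39 and 9.03 with elaidic acid, 8.44, 7.81, 8.38 and 8.31 with oleic acid, 9.74, 9.57, 9.68 and 9.47 with stearic acid and 7.64, 8.07, 7.72 and 7.65 in control. The groups lay in the order stearic, elaidic, oleic, control, and only oleic acid and control overlapped. Against control the change was 1.34 ± 0.20 (SE, n = 4 per group) with elaidic acid, a 2.54-fold rise (limma adjusted p = 0.00942), and 1.84 ± 0.20 with stearic acid, a 3.59-fold rise (limma adjusted p = 0.000585). With oleic acid it was 0.46 (95% interval 0.029 to 0.89) and did not pass (limma adjusted p = 1). With the slide series block the elaidic acid change was 1.21 ± 0.24 and no longer passed (limma adjusted p = 0.0911), and that of stearic acid was 1.57 ± 0.33 (limma adjusted p = 0.301). The elaidic acid call was also lost without normalisation (limma adjusted p = 0.361) and with only the 2 groups in the fit (limma adjusted p = 0.288). It held in all 8 fits that left out 1 elaidic acid or control sample, and samples of the other groups were not left out for it. Both elaidic acid samples of series A, at 8.92 and 9.03, lay above all 4 control samples. The elaidic acid samples of the different series were close to each other, with series B 0.27 above series A.

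SERPINA7 encodes the thyroxine-binding globulin. Its probe (PH_hs_0004431) read 7.78, 5.65, 7.27 and 6.44 with elaidic acid, 5.91, 5.96, 5.57 and 6.18 with oleic acid, 7.65, 7.10, 7.33 and 7.24 with stearic acid and 5.97, 5.36, 5.33 and 6.05 in control. The elaidic acid samples split by slide series, with 1 of the pair of series B among the stearic acid samples and the other above them, and 1 of the pair of series A inside the control range. It rose with stearic acid by 1.65 ± 0.37 (SE, n = 4 per group; limma adjusted p = 0.00635), but with the slide series block the value was 0.17 ± 0.44 (limma adjusted p = 1). With elaidic acid the change was 1.11 ± 0.37 and did not pass (limma adjusted p = 0.213), and within series A it was 0.37 ± 0.31. The elaidic acid samples of series B were 1.48 above those of series A, a larger distance than any blocked difference of this probe.

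Of the clotting inhibitors, SERPIND1 encodes heparin cofactor II, which inhibits thrombin. Its probe (PH_hs_0000198) read 12.88, 11.45, 12.83 and 11.61 with elaidic acid, 10.66, 11.15, 11.06 and 9.88 with oleic acid, 12.63, 12.51, 12.92 and 12.73 with stearic acid and 10.20, 11.06, 10.54 and 11.80 in control. As for SERPINA7, elaidic acid split by slide series, and the series B pair was 1.32 above the series A pair. The gene rose with stearic acid by 1.80 ± 0.41 (SE, n = 4 per group; limma adjusted p = 0.0067), or by 0.48 ± 0.58 with the block, where it did not pass (limma adjusted p = 0.997). With elaidic acid the change was 1.29 ± 0.41 (limma adjusted p = 0.19) and 0.63 ± 0.41 within series A. Without oleic acid replicate 4 or without control replicate 4, the sign of its small difference between oleic acid and control turned.

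SERPINA5 encodes the protein C inhibitor, which acts on activated protein C and several clotting proteases. Its probe (PH_hs_0004406) read 11.42, 10.92, 10.94 and 11.53 with elaidic acid, 11.21, 10.31, 10.34 and 11.45 with oleic acid, 12.21, 11.74, 11.96 and 11.62 with stearic acid and 10.39, 10.18, 10.64 and 9.69 in control. All stearic acid samples were above all others, and all elaidic acid samples were above control. It rose with stearic acid by 1.66 ± 0.30 (SE, n = 4 per group; limma adjusted p = 0.00229), and the value with the block was about the same at 1.70 ± 0.53, where it did not pass (limma adjusted p = 0.424). With elaidic acid the change was 0.98 ± 0.30, or 0.998 ± 0.37 within series A, and neither passed (limma adjusted p = 0.186 and 0.584). With oleic acid it was 0.60 (95% interval -0.035 to 1.24). The elaidic acid samples of series B and series A differed by only -0.044.

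SERPINC1 encodes antithrombin, the main inhibitor of thrombin and factor Xa, and its probes differed in sign in 4 of the 6 comparisons. They had the same sign for oleic acid against control (-0.30 and -0.11) and for elaidic against stearic acid (0.39 and 0.29). The dimmer probe (PH_hs_0004345) read 10.18, 9.45, 10.11 and 9.63 with elaidic acid, 8.20, 8.85, 8.69 and 8.33 with oleic acid, 9.55, 9.46, 9.00 and 9.79 with stearic acid and 8.61, 9.20, 8.52 and 8.95 in control. All elaidic acid samples were above all oleic acid and control samples on this probe. The brighter probe (PH_hs_0040357) read 9.67, 10.42, 9.40 and 10.63 with elaidic acid, 10.09, 10.61, 10.68 and 10.59 with oleic acid, 9.56, 9.98, 9.53 and 9.90 with stearic acid and 11.005, 10.09, 10.82 and 10.51 in control. Here the series B samples, of elaidic and stearic acid alike, were all below the series A samples. On the dimmer probe elaidic acid was higher than oleic acid by 1.32 ± 0.26 (SE, n = 4 per group; limma adjusted p = 0.0434), while the brighter one had a difference of -0.47 ± 0.29 (limma adjusted p = 0.364). On the brighter probe stearic acid was lower than control by -0.86 ± 0.29 (limma adjusted p = 0.0385), while the dimmer one had a difference of 0.63 ± 0.26 (limma adjusted p = 0.071). With the block, elaidic against oleic acid was 1.02 ± 0.28 on the dimmer and 0.030 ± 0.28 on the brighter probe, and stearic acid against control was 0.023 ± 0.40 on the dimmer and 0.13 ± 0.40 on the brighter one, with the sign of the brighter one turned in both comparisons, so that it matched the dimmer one, and none past the threshold. Elaidic acid against control was 1.02 ± 0.26 on the dimmer and -0.58 ± 0.29 on the brighter probe, or 0.72 ± 0.28 and -0.082 ± 0.28 with the block, and neither passed.

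The call of the dimmer SERPINC1 probe between the isomers held in 2 of the 8 fits that left out 1 sample and was lost in the others, with adjusted p up to 0.187 without elaidic acid replicate 1. It was also lost with median scaling (limma adjusted p = 0.051), cyclic loess (limma adjusted p = 0.0527), no normalisation (limma adjusted p = 0.499) and only the 2 groups in the fit (limma adjusted p = 0.387). The call of the brighter one between stearic acid and control held in 3 of 8 such fits, with adjusted p up to 0.118 without control replicate 1. It was also lost with median scaling (limma adjusted p = 0.0882), cyclic loess (limma adjusted p = 0.0553) and no normalisation (limma adjusted p = 0.803). Over the 16 samples the probes of SERPINC1 had a Pearson r of -0.63, those of SERPINF1 -0.33 and those of SERPINA1 0.59, which describes samples that share groups and slide series. No direction for SERPINC1 as a gene can be given from these values.

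**Figure D2:**
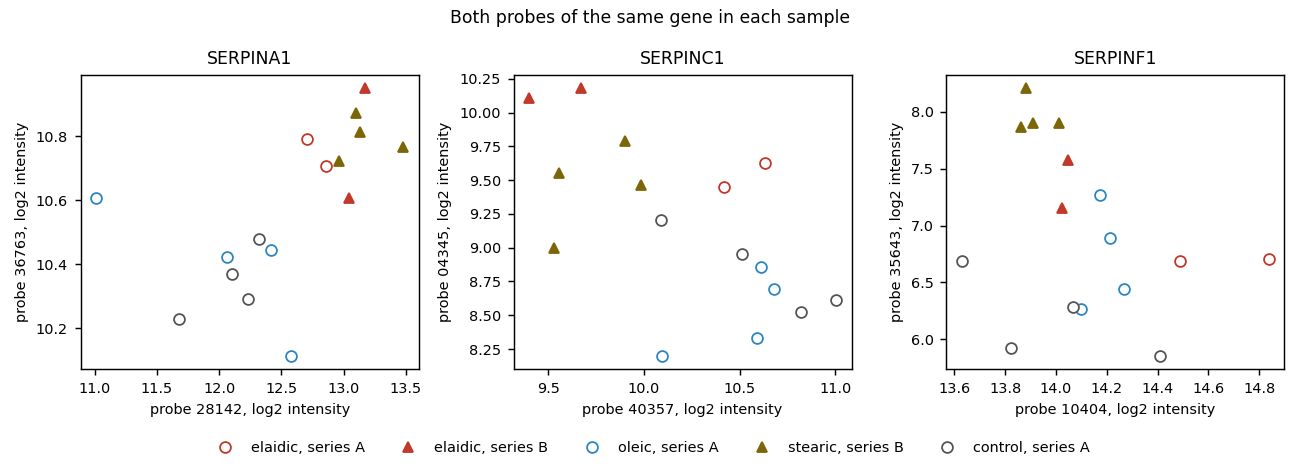
Normalised log2 intensity of the dimmer probe (y axis) against the brighter probe (x axis) of SERPINA1, SERPINC1 and SERPINF1 in the 16 samples, coloured by group, with open circles for slide series A and filled triangles for series B. Pearson r was 0.59 for the SERPINA1 probes, -0.63 for the SERPINC1 probes and -0.33 for the SERPINF1 probes.

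SERPINF2 encodes antiplasmin, the fast inhibitor of plasmin, and so restrains the breakdown of clots. Its probe (PH_hs_0009714) read 9.30, 9.47, 9.40 and 9.41 with elaidic acid, 9.21, 9.04, 8.76 and 8.79 with oleic acid, 9.34, 9.53, 9.50 and 9.19 with stearic acid and 8.57, 8.44, 8.73 and 8.44 in control. All 3 acids lay above control without overlap, and this was the one serpin probe where oleic acid did so. The elaidic acid samples spanned less than in any other probe of the set, and their series B and series A pairs differed by -0.093. It rose with stearic acid by 0.84 ± 0.18 (SE, n = 4 per group; limma adjusted p = 0.00554) and by 0.94 ± 0.31 with the block, where it did not pass (limma adjusted p = 0.45). The elaidic acid change of 0.85 ± 0.18 did not pass (limma adjusted p = 0.0672), and passed under 5 alternatives of the fit, at adjusted p between 0.0051 and 0.0487, but not within series A, where it was 0.90 ± 0.22 (limma adjusted p = 0.216). The oleic acid change was 0.40 (95% interval 0.016 to 0.79).

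SERPING1 encodes the C1 inhibitor of complement and of the contact system. It went against most of the others, with values of 6.70, 6.06, 6.96 and 7.005 with elaidic acid, 5.56, 6.07, 6.83 and 6.67 with oleic acid, 6.05, 6.63, 6.57 and 6.39 with stearic acid and 6.67, 6.91, 6.88 and 7.32 in control (PH_hs_0018714). All stearic acid samples were below all control samples, and the other acids overlapped control. The changes were -0.26 ± 0.30 with elaidic acid, -0.66 ± 0.30 with oleic acid and -0.53 ± 0.30 with stearic acid (SE, n = 4 per group), and none passed (limma adjusted p = 0.655, 1 and 0.174). With the block they were -0.41, -0.66 and -0.83.

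SERPINA1 encodes antitrypsin, which protects tissue from neutrophil elastase and is among the most abundant proteins that the liver secretes. Its brighter probe (PH_hs_0028142) read 13.04, 12.86, 13.17 and 12.71 with elaidic acid, 12.58, 12.42, 12.06 and 11.01 with oleic acid, 13.13, 12.96, 13.10 and 13.48 with stearic acid and 11.67, 12.23, 12.10 and 12.32 in control. Elaidic and stearic acid lay above all oleic acid and control samples, and oleic acid replicate 4 was the lowest of all. Its other probe (PH_hs_0036763) had group means of 10.76 ± 0.15 with elaidic acid, 10.40 ± 0.21 with oleic acid, 10.79 ± 0.06 with stearic acid and 10.34 ± 0.11 in control (SD, n = 4), with elaidic and stearic acid again the higher pair and smaller distances. The brighter probe rose with stearic acid by 1.09 ± 0.30 (SE, n = 4 per group; limma adjusted p = 0.016), or by 0.76 ± 0.51 with the block, where it did not pass (limma adjusted p = 0.856). That call was also lost without control replicate 1, at 0.95 (limma adjusted p = 0.0554). The other probe had a stearic acid change of 0.45 ± 0.18 (limma adjusted p = 0.0645), or 0.42 ± 0.30 with the block, and the elaidic acid changes were 0.86 ± 0.30 and 0.42 ± 0.18 (limma adjusted p = 0.226 and 0.312), or 0.70 ± 0.36 and 0.41 ± 0.21 within series A.

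SERPINA3 encodes antichymotrypsin, the inhibitor of cathepsin G that rises in the acute phase. Its probe (PH_hs_0040345) gave raw intensities from -0.79 to 12.5 with a median of 3.55, at or below 0 in 2 of 16 samples, and was not tested. When all probes were kept with a floor of 10, all its normalised values were at the floor.

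SERPINF1 encodes the pigment epithelium-derived factor, a secreted serpin that restrains vessel growth. Its brighter probe (PH_hs_0010404) read 14.05, 14.49, 14.02 and 14.84 with elaidic acid, 14.17, 14.21, 14.10 and 14.27 with oleic acid, 13.91, 14.01, 13.88 and 13.86 with stearic acid and 14.41, 13.82, 14.07 and 13.63 in control. Its dimmer probe (PH_hs_0035643) read 7.57, 6.69, 7.15 and 6.71 with elaidic acid, 7.27, 6.89, 6.27 and 6.44 with oleic acid, 7.90, 7.90, 8.21 and 7.87 with stearic acid and 5.85, 5.93, 6.28 and 6.69 in control. The dimmer probe had all stearic acid samples above all others, while the brighter one had them inside the control range. It rose with stearic acid by 1.78 ± 0.28 (SE, n = 4 per group; limma adjusted p = 0.0012) on the dimmer probe, or by 1.11 ± 0.44 with the block, where it did not pass (limma adjusted p = 0.543). The brighter probe had a difference of -0.067 ± 0.23 (limma adjusted p = 0.836), whose sign turned to 0.56 with the block, to 0.23 with median scaling and to 0.74 without normalisation, where it passed (limma adjusted p = 0.0352). With elaidic acid the changes were 0.84 ± 0.28 on the dimmer and 0.37 ± 0.23 on the brighter probe, and neither passed (limma adjusted p = 0.211 and 0.446). With the block they were 0.51 ± 0.31 and 0.68 ± 0.23 (limma adjusted p = 0.883 and 0.52).

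Across the set, elaidic acid was above control in 10 of 12 probes, where 43.5% of all tested probes were, with a median change of 0.86 against -0.10 over all tested probes. Of the 12 probes 1 passed, that of SERPINA6, where 0.323% of all 22939 probes passed in either direction. The groups did not overlap, with elaidic acid higher, in 6 of 12 serpin probes and in 3.82% of all probes. With the slide series block the median was 0.66 against 0.02 over all probes, again with 10 of 12 higher (52.2% of all probes), and 0 serpin probes passed limma, where 0.0392% of all probes did. At an unadjusted p under 0.05 in that fit there were 5 of 12 serpin probes, all higher, and 6.53% of all probes. The series A elaidic acid samples were both above all 4 control samples in 7 of 12 serpin probes, belonging to SERPINA1, SERPINA5, SERPINA6, SERPINC1, SERPINF1 and SERPINF2, and in 7.17% of all probes. They were both below all control samples in 0 of 12 serpin probes and in 5.72% of all probes. Since several probes share a gene and all share the same 6 samples, these counts are a description.

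With stearic acid 9 of 12 probes were above control, where 43.2% of all probes were, with a median of 0.97 against -0.18 over all probes. A total of 8 passed, 7 higher and 1 lower, where 29.8% of all probes passed, 15% higher and 14.8% lower. The 7 were SERPINA5, SERPINA6, SERPINA7, SERPIND1, SERPINF2, the brighter SERPINA1 probe and the dimmer SERPINF1 probe, and the 1 lower was the brighter SERPINC1 probe. In 8 of 12 serpin probes all stearic acid samples were above control and in 2 below, where the shares of all probes were 18.7% and 18.9%. With the block 11 of 12 were higher (50.8% of all probes) with a median of 0.52 against 0.01 over all probes, 0 passed limma, as for all probes (0%), and 4 of 12 against 7.45% of all probes had an unadjusted p under 0.05. Stearic acid and slide series cannot be told apart except through the 4 elaidic acid samples. Reference genes moved too, with 5 of 9 called higher and 1 lower and a median of 1.40, or 0.12 with the block. Of the hepatocyte products 7 of 11 were called higher, with a median of 0.90, or 0.38 with the block. These lists took the brightest probe of each gene, and a fit on such probes called 2578 of 12085 higher and 1583 lower.

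With oleic acid 7 of 12 probes were above control, where 51.9% of all probes were, and the median was 0.13 against 0.01 over all probes. None passed limma, as for all probes (0%), and 3 of 12 had an unadjusted p under 0.05 against 2.62% of all probes, SERPINA6 and SERPINF2 higher and SERPING1 lower. SERPINF2 alone did not overlap, against 0.606% of all probes with oleic acid higher.

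**Figure D3:**
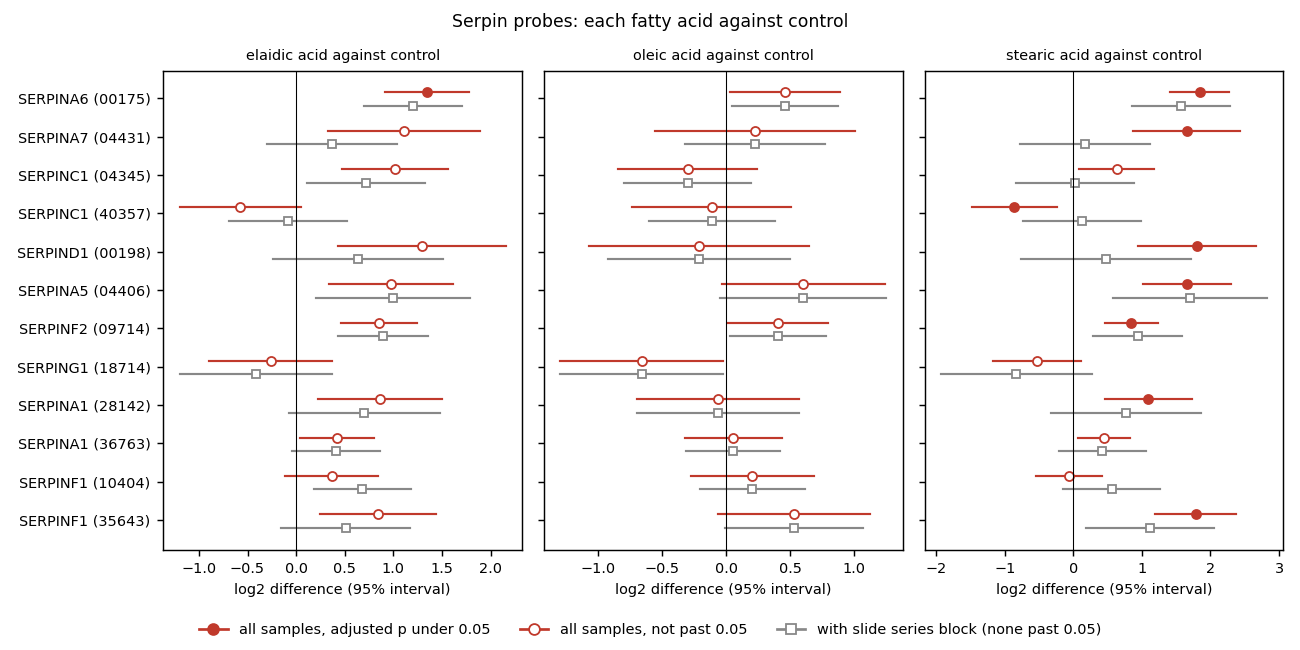
Log2 difference from control with its 95% interval (x axis) for the 12 serpin probes (rows) with elaidic, oleic and stearic acid (panels). Circles are the fit on all 16 samples, filled where adjusted p was under 0.05, and grey squares the fit with slide series as a block, where none passed. SERPINA6, SERPINA5 and SERPINF2 kept nearly the same value in both fits with elaidic acid (1.34 and 1.21, 0.98 and 0.998, 0.85 and 0.90), and SERPINA7 and SERPIND1 did not (1.11 and 0.37, 1.29 and 0.63).

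The acids differ by the geometry or presence of 1 double bond, and their readouts were compared at the same dose and time in 3 pairs. The trans isomer was above the cis isomer in 11 of 12 probes, where 42.9% of all probes were, with a median difference of 0.42 against -0.13 over all probes. The dimmer SERPINC1 probe was the 1 of 12 that passed, where 0.318% of all probes did. Groups did not overlap, with elaidic acid higher, in 5 of 12 probes and in 4.07% of all probes. These 5 were the brighter SERPINA1 probe at 0.93 ± 0.30, SERPINA6 at 0.88 ± 0.20, the dimmer SERPINC1 probe, SERPIND1 at 1.51 ± 0.41 and SERPINF2 at 0.45 ± 0.18 (SE, n = 4 per group). With the block SERPIND1 was at 0.84 ± 0.41, the brighter SERPINA1 probe at 0.76 ± 0.36, SERPINA6 at 0.75 ± 0.24 and SERPINF2 at 0.49 ± 0.22. Of these, SERPINA6 passed when the dimmest probes were left out (limma adjusted p = 0.0268) or all were kept with a floor (limma adjusted p = 0.0206), and otherwise did not (limma adjusted p = 0.0865). With the block the median was 0.44 against 0.01, 11 of 12 were higher against 50.8% of all probes, 0 passed limma against 0.0218% of all probes, and 3 of 12 against 5.85% of all probes had an unadjusted p under 0.05. Both series A elaidic acid samples were above all 4 oleic acid samples in 7 of 12 probes and in 6.29% of all probes.

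Between elaidic and stearic acid the differences of these probes went both ways. The median difference was -0.13 against 0.07 over all probes, 5 of 12 were higher with elaidic acid against 54.8% of all probes, and none passed limma, where 0.397% of all probes did. At an unadjusted p under 0.05 there were 3 of 12 serpin probes, all lower with elaidic acid, and 14.5% of all probes. Those 3, SERPINA5 at -0.68 (95% interval -1.32 to -0.042), SERPINA6 at -0.50 (-0.93 to -0.071) and the dimmer SERPINF1 probe at -0.94 (-1.53 to -0.34), did not overlap, against 7.13% of all probes with elaidic acid lower. With the block they were -0.70 ± 0.37 for SERPINA5, -0.37 ± 0.24 for SERPINA6 and -0.60 ± 0.31 for the dimmer SERPINF1 probe. The brighter SERPINF1 probe had elaidic acid higher without overlap, at 0.43 ± 0.23, or 0.12 ± 0.23 with the block, against 4.72% of all probes. With the block 0 passed limma against 0.00436% of all probes, and 1 of 12, the dimmer SERPINC1 probe at 0.69 ± 0.28, had an unadjusted p under 0.05 against 5.82% of all probes. The series B elaidic acid samples were below all stearic acid samples in the same 3 probes, against 12.3% of all probes, and above them in 3 others, against 11.1%. For SERPINF2 the difference was 0.0058 (-0.38 to 0.39), for the dimmer SERPINA1 probe -0.029 (-0.41 to 0.35) and for SERPIND1 -0.50 (-1.36 to 0.36), so that changes of up to about those bounds are not excluded. With the block these 3 were at -0.040, -0.014 and 0.16.

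Oleic acid was below stearic acid in 10 of 12 probes, where 56.9% of all probes were above it, with a median of -0.99 against 0.21 over all probes. A total of 7 passed, all lower with oleic acid, where 39.5% of all probes passed in either direction and 18.4% were lower. The 7 were SERPIND1 at -2.01 ± 0.41, SERPINA7 at -1.43 ± 0.37, SERPINA6 at -1.38 ± 0.20, the dimmer SERPINF1 probe at -1.25 ± 0.28, the brighter SERPINA1 probe at -1.15 ± 0.30, SERPINA5 at -1.05 ± 0.30 and the dimmer SERPINC1 probe at -0.93 ± 0.26 (SE, n = 4 per group). These 7 and the dimmer SERPINA1 probe lay below stearic acid without overlap, and the brighter probes of SERPINC1 and SERPINF1 above it, against 21.2% and 23.5% of all probes. With the block SERPIND1 was at -0.69 ± 0.58, the dimmer SERPINF1 probe at -0.58 ± 0.44, the dimmer SERPINC1 probe at -0.32 ± 0.40 and the brighter SERPINA1 probe at -0.83 ± 0.51. The median there was -0.45, and 0 passed limma, as for all probes (0%), with 1 of 12, SERPINA6 at -1.11 ± 0.33, at an unadjusted p under 0.05 against 6.6% of all probes. SERPINA7 turned to 0.055 there, and SERPINA5 was at -1.10 ± 0.53. The call for SERPINA5 was lost without stearic acid replicate 1 (limma adjusted p = 0.0516).

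**Figure D4:**
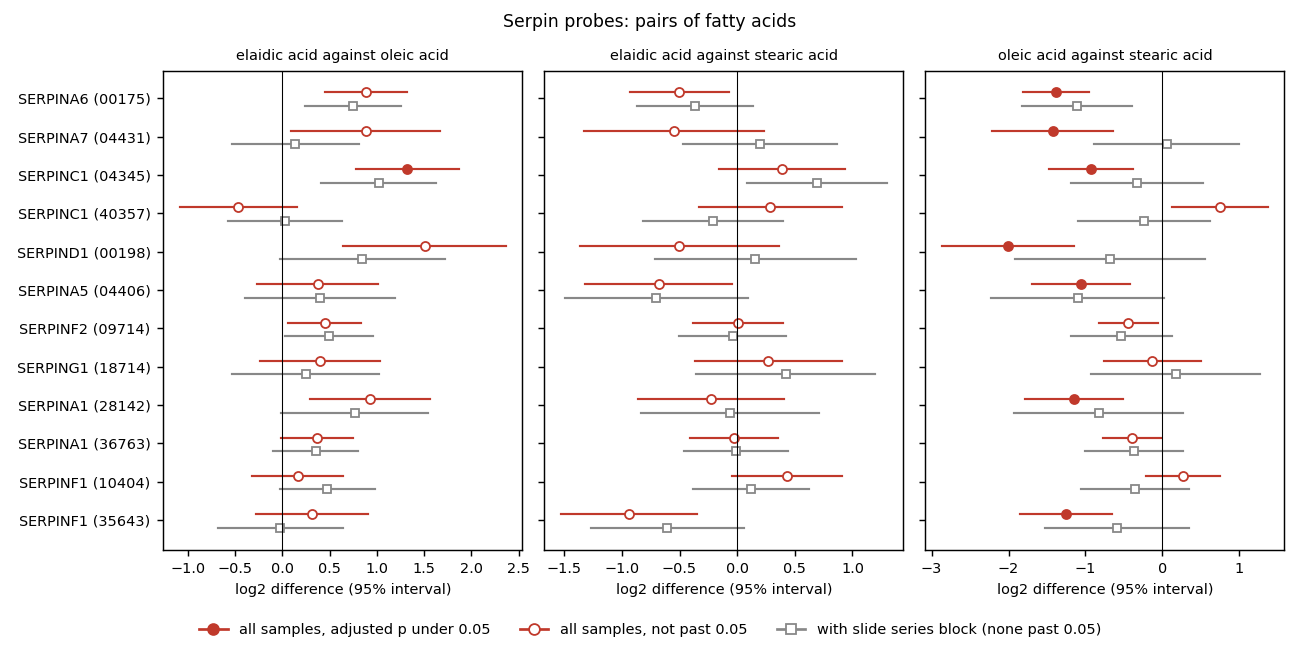
Log2 difference with its 95% interval (x axis) for the 12 serpin probes (rows) in the 3 pairs of fatty acids (panels), the first-named acid minus the second. Circles are the fit on all samples, filled where adjusted p was under 0.05, and grey squares the fit with slide series as a block. Elaidic acid was above oleic acid in 11 of 12 probes, and oleic acid was below stearic acid in 10 of 12.

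The serpins were set beside related gene lists, with the brightest tested probe standing for a gene. For elaidic acid against control 43.5% of all tested probes were higher and 0.323% were called in either direction. These shares are over all probes, with no choice of the brightest per gene, and so are not matched to the lists. In a fit on the brightest probe of each gene, 108 of 12085 were called and the median was 0.02. Of the serpin genes 7 of 9 were higher with a median of 0.86, or 0.68 with the block. Other hepatocyte products moved alongside, with 11 of 11 higher, a median of 0.92, or 0.45 with the block, and 1 called. That gene was TTR, the transthyretin that shares thyroxine transport with SERPINA7, which rose by 1.73 ± 0.28 (limma adjusted p = 0.014) and was at 1.66 ± 0.34 with the block, which ended its call (limma adjusted p = 0.12). TF, transferrin, had a change of 2.24 ± 0.48 (limma adjusted p = 0.0654). Reference genes had 7 of 9 higher with a median of 0.62 and 0 called, and their median was 0.15 with the block. Their part in the serpin values was not tested.

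Of 16 tested target proteases 11 were higher with elaidic acid than in control and 0 were called, with a median of 0.38, or 0.28 with the block. F12, the contact factor that SERPING1 inhibits, was at 0.82 ± 0.22 and F10, which SERPINC1 inhibits, at 1.36 ± 0.41 (SE, n = 4 per group), and neither passed (limma adjusted p = 0.139 and 0.176). With the block they were 0.64 and 0.72. With stearic acid 3 of the 16 rose and 1 fell, where 15% and 14.8% of all probes did. In the fit on the brightest probe of each gene, 2578 of 12085 rose and 1583 fell. Among the called proteases were F2, prothrombin, at 1.998 ± 0.34 (limma adjusted p = 0.00161) and F7, factor VII, at -1.36 ± 0.33 (limma adjusted p = 0.00981). With the block 0 were called, with F2 at 1.14.

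Of 17 other tested serpins 10 were higher with elaidic acid and 0 were called, with a median of 0.32, or 0.01 with the block. The smallest p belonged to SERPINA11, a secreted serpin of the chromosome 14 cluster, at 1.32 ± 0.35 (limma adjusted p = 0.124), and to SERPINA4, kallistatin, at 1.91 ± 0.59 (limma adjusted p = 0.19). With the block they were 1.14 and 1.23. With stearic acid 4 of the 17 rose, where 15% of all probes did, and 2578 of 12085 with the brightest probe of each gene. Among them SERPINA4 rose by 3.01 ± 0.59 (limma adjusted p = 0.00352) and AGT, angiotensinogen, by 1.11 ± 0.29 (limma adjusted p = 0.0131). With the block none was called, and SERPINA4 was at 1.64 and AGT at 0.046.

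Genes of serpin export and quality control had 11 of 17 higher with elaidic acid, 0 called, a median of 0.37, or 0.06 with the block. SURF4, a cargo receptor of the early secretory pathway, was at 0.94 ± 0.22 (limma adjusted p = 0.0932) and HSPA5, the chaperone BiP, at 1.26 ± 0.30 (limma adjusted p = 0.0946). Liver transcription factors and acute phase signalling genes had 8 of 12 higher, 0 called, a median of 0.45, or 0.16 with the block. FOXA3, a FOXA factor, was at 1.19 ± 0.37 (limma adjusted p = 0.19) and NR1H4, the bile acid receptor, at 1.81 ± 0.58 (limma adjusted p = 0.204), or 0.57 and 0.94 with the block. The list kept as ligands and cofactors had 8 of 9 higher, a median of 0.85, or 0.56 with the block, and 2 called. These were TTR, already counted among the hepatocyte products, and LMNB1, at 1.78 ± 0.27 (limma adjusted p = 0.00942). LMNB1 is a nuclear lamin and no known ligand or cofactor of these serpins, so its call says nothing about such genes. Neither TTR nor LMNB1 passed with the block (limma adjusted p = 0.12 and 0.087).

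Within the set, the 36 pairs of the 9 genes had Pearson correlations over the 16 samples from -0.83 to 0.90 with a median of 0.14. SERPINA1 and SERPIND1 were the most alike, at 0.90, and SERPINC1 (brighter probe) and SERPIND1 the least, at -0.83. After each group and slide series was centred on its own mean, SERPINA1 and SERPIND1 were at 0.70 and SERPINC1 and SERPIND1 at -0.33. The lowest pair was then SERPIND1 and SERPINF1 at -0.72, the median was -0.10 and 14 pairs were above 0. Over the whole array the single-symbol probe most like SERPINA6 was that of QPRT, an enzyme of NAD synthesis, at r = 0.96. For SERPINA5 it was ICAM1, an adhesion molecule, at 0.96, for SERPINF2 it was MCM3, a subunit of the replicative helicase, at 0.92, and for SERPIND1 it was HNRNPA2B1, an RNA-binding protein, at 0.98. These 16 points share groups, slide series and overall brightness.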

How the data were processed

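The authors deposited 1 intensity per probe and sample, not on a log scale, from 1-colour arrays hybridised with Cy5-labelled amplified RNA, per the labels. Values at or below 0 made up 3.31% to 6.24% of each sample, so a background had been subtracted. The background method and how the 2 technical arrays per sample were combined are not given in the sources used here. Symbols came from the platform probe table, which names no genome build. A probe that was not above 0 in every sample was not tested (8029, or 25.9%), and the remaining 22939 were taken to log2 and quantile normalised. The tests, two-sided, were those of limma 3.58.1 (lmFit and eBayes) under R 4.3.3 on all 16 samples. Benjamini-Hochberg adjustment ran over all tested probes, and a probe passed at adjusted p under 0.05. Intervals are 95% intervals of that model. The number of samples limits precision. Alternatives covered normalisation, dim probes, blocks for slide series and replicate number, fits on the 2 groups compared, and leaving out each sample of those 2 groups. All probes of the members were named, with the 2 genes of smallest p in elaidic acid against control for each list, and further list genes in stearic acid against control were named after their values were seen. The members and lists were chosen with earlier results of these data known. Figures used matplotlib 3.10.9 in Python 3.11.15.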

Additional observations from a re-analysis of the deposited data

Results flagged for a closer look

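Among the 48 sets of 4 samples (12 probes in 4 groups), 2 held a sample far from the other 3 of its group, where chance flags about 1 in 20. With stearic acid, replicate 3 of the dimmer SERPINF1 probe was at 8.21, while the others lay between 7.87 and 7.90. With oleic acid, replicate 1 of the brighter SERPINC1 probe was at 10.09, while the others lay between 10.59 and 10.68.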

How the results depend on the processing

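No serpin probe passed limma in any comparison with slide series as a block, and precision is limited by 4 samples per group and by 2 elaidic acid samples per series. The counts below are out of 22939 probes, but 30968 with the floor, 11470 without the dimmest 50% and 12085 with 1 probe per gene. Serpin probes numbered 12, but 10 without the dimmest 50% and 9 with 1 probe per gene. Between elaidic acid and control 74 probes passed, 1 of them a serpin probe. These 2 counts were 9 and 0 with the slide series block, 28 and 1 with the replicate block, and 0 and 0 without normalisation. They were 78 and 2 with cyclic loess, 184 and 2 with all probes kept at a floor of 10, and 189 and 3 without the dimmest 50%. With a variance trend they were 154 and 2, with 1 probe per gene 108 and 2, and with only the 2 groups in the fit 0 and 0. Between elaidic and oleic acid 73 passed, 1 a serpin probe. These were 5 and 0 with the slide series block, 4 and 0 with the replicate block, 2 and 0 without normalisation, 141 and 2 with the floor, 180 and 2 without the dimmest 50%, 126 with the trend, and 0 and 0 with only the 2 groups, and 0 serpin probes passed with median scaling, cyclic loess or 1 probe per gene. Between elaidic and stearic acid 91 passed, with 1 under the slide series block, 0 under the replicate block, 0 without normalisation, 336 with the floor, 294 without the dimmest 50%, 223 with the trend and 0 with only the 2 groups, and 0 serpin probes in each. Between stearic acid and control 6825 of 22939 probes and 8 of 12 serpin probes passed, with 0 and 0 under the block. Without normalisation 3099 of 22939 passed, and with 1 probe per gene 4161 of 12085. Between oleic and stearic acid 9057 of 22939 probes and 7 of 12 serpin probes passed, with 0 and 0 under the block. Without normalisation 5125 of 22939 passed, and with 1 probe per gene 5266 of 12085. Of called probes, the share higher was 50.3% for stearic acid against control (92.1% without normalisation), 53.3% for oleic against stearic acid (5.87% without normalisation) and 22.0% for elaidic against stearic acid (6.98% with median scaling, 37.4% without the dimmest 50%). The median over all probes for stearic acid against control was -0.18, or 0.26 without normalisation, and for oleic against stearic acid 0.21, or -0.39. Deviations of same-numbered samples of different groups had correlations from -0.46 to 0.36 in 24 pairs, 7 of them over 0.1. Those of different-numbered samples ran from -0.43 to 0.47 in 72 pairs, 23 of them over 0.1. Elaidic acid samples also split by slide series, and the labels do not say what the replicate number stands for. These values therefore cannot decide whether it marks a pairing. The replicate block took from the serpin calls the dimmer SERPINC1 probe between the isomers (adjusted p = 0.132) and the brighter one between stearic acid and control (adjusted p = 0.0614).

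Signs turned as follows, and the cause was not tested. With the slide series block, stearic acid against control was 0.13 for the brighter SERPINC1 probe and 0.56 for the brighter SERPINF1 probe. Elaidic against oleic acid was 0.030 for the brighter SERPINC1 and -0.020 for the dimmer SERPINF1 probe. Elaidic against stearic acid was 0.19 for SERPINA7, -0.21 for the brighter SERPINC1 probe, 0.16 for SERPIND1 and -0.040 for SERPINF2. Oleic against stearic acid was 0.055 for SERPINA7, -0.24 for the brighter SERPINC1 probe, -0.36 for the brighter SERPINF1 probe and 0.17 for SERPING1. With median scaling the brighter SERPINF1 probe was at 0.23 for stearic acid against control and -0.022 for oleic against stearic acid, and SERPINF2 at -0.097 for elaidic against stearic acid (-0.066 with cyclic loess). Without normalisation the dimmer SERPINA1 probe was at -0.054 for oleic acid against control, and for stearic acid against control the brighter SERPINF1 probe was at 0.74 and SERPING1 at 0.0092. There, elaidic against stearic acid was -0.033 and -0.18 for the SERPINC1 probes, -0.019 for the brighter SERPINF1 probe, -0.42 for SERPINF2 and -0.14 for SERPING1, and oleic against stearic acid was -0.065 for the brighter SERPINC1 and -0.63 for the brighter SERPINF1 probe.

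Leaving out 1 sample of the groups compared gave 24 to 113 probes between elaidic acid and control, each time with 1 serpin probe. There were 24 to 38 without elaidic acid replicate 1 or 3 or control replicate 1, 2 or 3, and 113 without elaidic acid replicate 4. It gave 3 to 175 with 0 to 1 serpin probes between the isomers, with 3 to 39 without elaidic acid replicate 1 or 3 or oleic acid replicate 2, 3 or 4, and 111 and 175 without elaidic acid replicates 2 and 4. Between elaidic and stearic acid it gave 49 without elaidic acid replicate 1 and 0 without any one of the others. Between stearic acid and control it gave 3507 to 8206 with 6 to 9 serpin probes, with 3507 to 4425 without stearic acid replicate 1, 3 or 4 or control replicate 1 or 3. Between oleic and stearic acid it gave 4750 to 8497 with 6 to 9, with 4750 to 6020 without oleic acid replicate 4 or stearic acid replicate 1, 3 or 4. Signs turned in ranges across 0 for oleic acid against control, from -0.25 to 0.27 and -0.016 to 0.15 for the SERPINA1 probes, -0.28 to 0.023 for the brighter SERPINC1 probe and -0.45 to 0.090 for SERPIND1. They also did for the brighter SERPINF1 probe in stearic acid against control (-0.19 to 0.074), SERPING1 in oleic against stearic acid (-0.31 to 0.11), and the dimmer SERPINA1 probe (-0.092 to 0.023) and SERPINF2 (-0.060 to 0.054) in elaidic against stearic acid.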
